A study of Mus musculus with 4 samples.

Results

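Heat shock chaperones are described here in cultured mouse spermatogonia of strain 129 and strain C57BL/6 (B6). The members were the 10 rows of the count table whose gene name is Hspa1a, Hspa1b, Hspa8, Hsph1, Dnajb1, Hspb1, Hsp90aa1, Hspe1, Hspd1 or Bag3, out of 32285 genes in all. The cells, called GS cells, were established from testes of wild-type mice aged 10 days, and RNA sequencing was run on 2 libraries of 129 and 2 of B6, with no treatment named for either strain. Titles of the B6 libraries also carry the mark F0, which the labels do not explain, and no substrain of 129 is named. The labels do not say how many animals or cultures stand behind the libraries of a strain, so the p-values measure a spread between samples that may be technical. The cells were dissociated with trypsin before RNA extraction. Total counts were 20375086 to 20798809 in the 129 libraries and 20488618 to 25374801 in the B6 libraries.

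Chaperones bind proteins that are not yet folded, or no longer folded, and keep them from clumping. The Hsp70 proteins (Hspa genes) do so in cycles of ATP use: a J-protein such as Dnajb1 starts the cycle, and exchange factors such as Hsph1 and Bag3 end it. Hsp90 (Hsp90aa1) matures kinases and steroid receptors, the chaperonin made of Hspd1 and Hspe1 folds proteins inside mitochondria, and small heat shock proteins such as Hspb1 hold unfolded clients. Cells under heat or proteotoxic stress raise many of these genes through the transcription factor HSF1, which binds repeats of the letters GAA and TTC called heat shock elements. Male germ cells are sensitive to heat, and the testis also expresses Hsp70 forms of its own, among them Hspa1l and Hspa2.

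The promoter sequences below show how alike the paired members are at their starts, since both Hspa1a with Hspa1b and Hspe1 with Hspd1 lie side by side in the genome. They are RefSeq sequences of GRCm38.p6, the assembly that mm10 names, read on the strand of the gene. Capitals mark heat shock element letters in 2 forms. The short form is GAA followed by TTC with any 2 bases between them. The longer form has a further block in alternation, as GAA, TTC, GAA or its reverse complement TTC, GAA, TTC, each block 2 bases from the next. TTC followed by GAA alone was not searched for and is not marked. Each run holds the 250 bases before the start, and that of Hsph1 goes 30 bases past it. The positions are chr17:34972157-34972406 (minus strand) for Hspa1a, chr17:34959239-34959488 (minus) for Hspa1b, chr1:55087898-55088147 (plus) for Hspe1, chr1:55087933-55088182 (minus) for Hspd1 and chr5:149636286-149636565 (minus) for Hsph1.
Hspa1a: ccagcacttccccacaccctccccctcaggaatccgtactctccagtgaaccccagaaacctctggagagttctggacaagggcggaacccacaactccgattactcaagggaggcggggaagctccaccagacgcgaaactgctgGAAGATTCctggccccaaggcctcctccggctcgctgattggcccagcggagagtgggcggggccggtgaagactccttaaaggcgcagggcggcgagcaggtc
Hspa1b: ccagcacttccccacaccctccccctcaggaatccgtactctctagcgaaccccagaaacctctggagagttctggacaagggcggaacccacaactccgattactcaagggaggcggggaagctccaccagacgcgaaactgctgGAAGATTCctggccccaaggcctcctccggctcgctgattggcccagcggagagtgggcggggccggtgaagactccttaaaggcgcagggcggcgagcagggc
Hspe1: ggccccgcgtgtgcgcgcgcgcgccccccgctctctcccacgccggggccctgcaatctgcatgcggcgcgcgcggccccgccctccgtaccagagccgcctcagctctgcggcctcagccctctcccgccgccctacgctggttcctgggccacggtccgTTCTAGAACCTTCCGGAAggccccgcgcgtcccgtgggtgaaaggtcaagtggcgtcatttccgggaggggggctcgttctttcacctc
Hspd1: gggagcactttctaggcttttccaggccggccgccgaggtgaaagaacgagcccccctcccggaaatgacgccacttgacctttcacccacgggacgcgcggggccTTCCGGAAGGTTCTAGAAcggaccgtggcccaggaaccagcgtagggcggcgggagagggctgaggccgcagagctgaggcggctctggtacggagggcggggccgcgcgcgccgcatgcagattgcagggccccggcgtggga
Hsph1: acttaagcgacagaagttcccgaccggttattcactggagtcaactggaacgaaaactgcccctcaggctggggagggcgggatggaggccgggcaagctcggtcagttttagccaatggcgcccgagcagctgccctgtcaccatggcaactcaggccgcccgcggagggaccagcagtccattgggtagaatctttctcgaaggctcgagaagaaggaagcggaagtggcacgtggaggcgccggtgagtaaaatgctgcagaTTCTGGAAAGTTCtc
The runs of Hspa1a and Hspa1b differed at 3 of 250 bases and held the same GAAGATTC. The capitals of Hspe1 and Hspd1 are the same 18 bases read on opposite strands, since these genes start towards opposite sides from a common stretch.

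RefSeq promoter windows, each of 300 bases, were found by symbol for 8 of the 10 members, in 11 windows. Hspa8 and Hsp90aa1 had no entry. The short form, which reads alike on both strands, was found in a window of 7 of those 8 genes: Hspa1a, Hspa1b, Hsph1, Hspb1, Hspe1, Hspd1 and Bag3. It was found in 7.86% of all 32851 windows. The longer form, which contains the short one, was found for 3 members, Hsph1, Hspe1 and Hspd1, and in 0.603% of all windows. The shares count windows while the members are counted as genes, some of them with 2 windows. Hspa1a and Hspa1b, with near-identical promoters, are not separate instances, nor are Hspe1 and Hspd1, which hold the same bases. Neither window of Dnajb1 held either form, nor did 1 of the 2 windows of Hspd1. Other arrangements of the blocks, such as TTC followed by GAA alone or blocks with a mismatch, were not searched for. A match is a description of the sequence and not a bound site.

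Counts of these genes are also limited by sequence shared with other genes, such as copies elsewhere in the genome and genes that overlap them. Over all 76-base windows, the read length, of each member's GENCODE M21 transcripts, 61.5% of those of Hspa1a and 55.6% of those of Hspa1b also occurred in a transcript of another gene, in 1517 windows that of the other copy. Their coding sequences aligned with 1918 matching bases, 8 mismatches and 3 bases in gaps, an identity of 99.4%. The shared part was 32.8% for Hspa8, 46.3% for Hspb1, 42.6% for Hsp90aa1, 14.4% for Hspe1 and 29.3% for Hspd1, for the most part with processed pseudogenes for Hspb1 (Hsp25-ps1), Hspd1 (Hspd1-ps3) and Hspa8 (Gm15459). Over windows inside the coding sequence alone the shared parts were larger. They were 80.0% for Hspa1a, 74.9% for Hspa1b, 81.0% for Hspa8 and 85.5% for Hspb1. For Hsp90aa1, Hspe1 and Hspd1 they were 77.3%, 69.2% and 47.5%. Hsph1, Dnajb1 and Bag3 shared 0 windows. The sources used here do not say how reads with several matches were treated, and reads of 129 cells were aligned to a build made from C57BL/6.

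Of the 10 chaperones only Hspa1a differed between the strains by the test: it fell in 129, and the other 9 did not pass. Hsph1, Bag3 and Hspb1 had both 129 libraries above both B6 libraries, Hspa1a, Hspa8, Hspe1 and Dnajb1 had both below, and Hspa1b, Hsp90aa1 and Hspd1 overlapped. Dnajb1 was placed there only by 95.59 CPM in 129 replicate 2 against 95.60 CPM in B6 replicate 2. So 7 of 10 did not overlap, where the same held for 60.1% of all 16005 genes tested. All 10 members passed the filter on low counts. The test was edgeR's quasi-likelihood test with Benjamini-Hochberg adjustment over all genes tested at a threshold of 0.05, and 2.86% of genes passed it (1.84% higher and 1.02% lower in 129). The median log2 fold change, 129 over B6, was -0.16 over the members and 0.015 over all genes tested. DESeq2 called 3 members, where it called 15.3% of all genes, and limma-voom called 0, where it called 1.54%. With edgeR 4492 genes had an unadjusted p under 0.05.

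**Figure D1:**
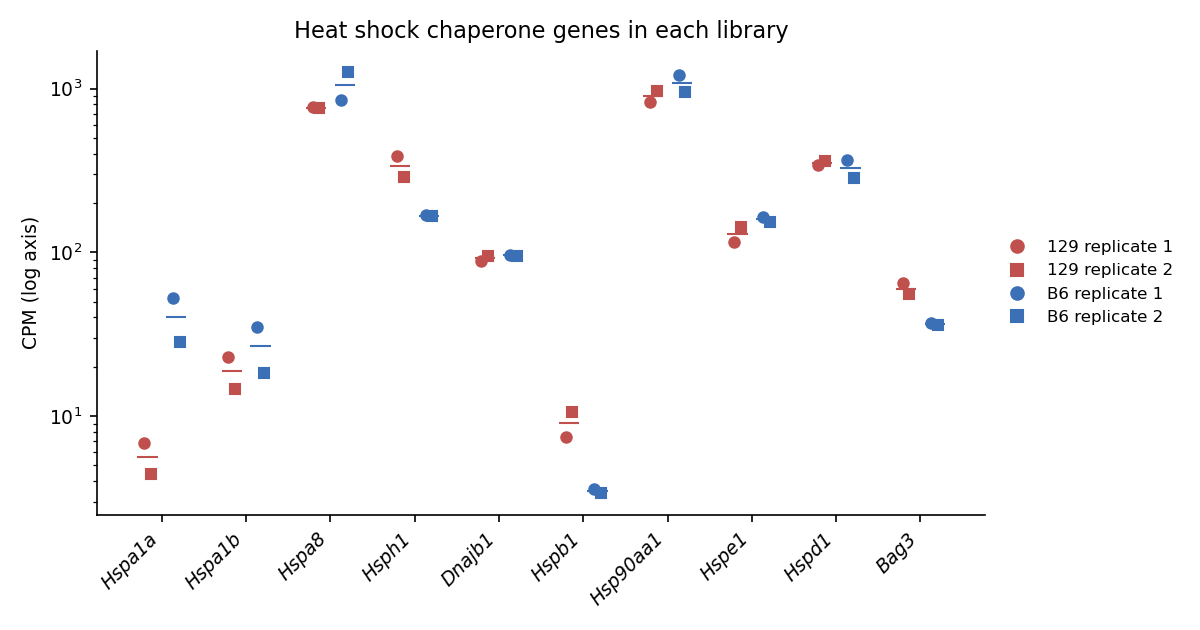
CPM of the 10 chaperone genes in each library on a log axis, with 129 in red left of B6 in blue, circles for replicate 1, squares for replicate 2 and a line at each strain mean (n = 2). The B6 libraries of Hspa1a, at 52.5 and 28.4 CPM, lie far above the 129 libraries at 6.86 and 4.41 CPM, while most other genes lie close together.

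**Figure D2:**
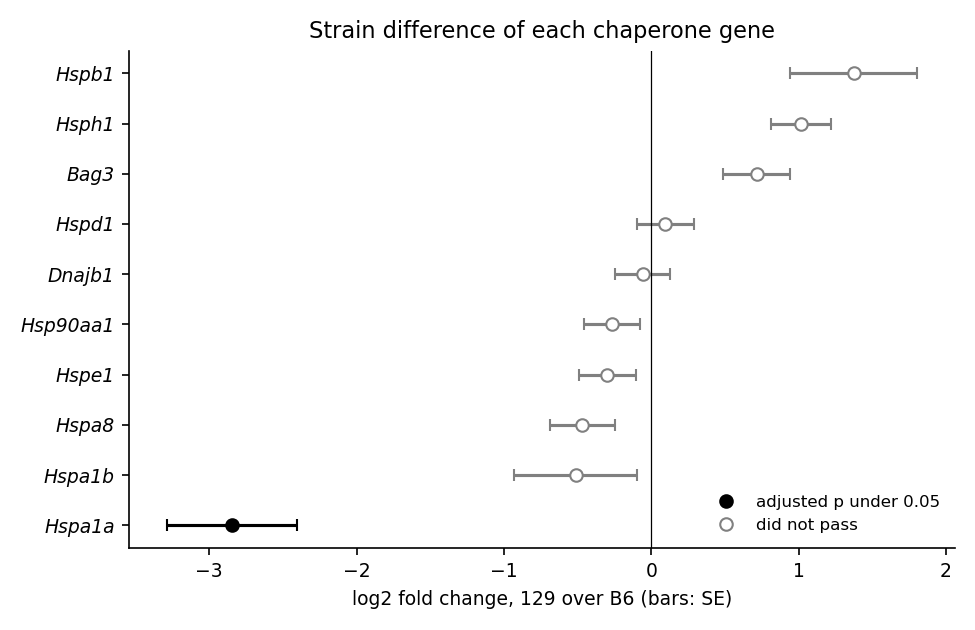
Log2 fold change of each chaperone gene, 129 over B6, with its standard error (n = 2 libraries per strain), ordered by size. Hspa1a at -2.85 is the filled point, the only member past the adjusted p threshold, while Hspb1, Hsph1 and Bag3 lie to the right without passing.

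The inducible Hsp70 genes Hspa1a and Hspa1b encode almost the same protein, the form that cells make in bulk under heat stress. Hspa1a (ENSMUSG00000091971, chr17:34969190-34972156, minus strand) stood at 6.86 and 4.41 CPM in the 129 libraries, against 52.5 and 28.4 CPM in the B6 libraries (CPM are counts scaled to the size of each library). Both 129 libraries were thus low, and the higher of them lay below the lower B6 library. The means were 5.63 ± 1.73 CPM in 129 and 40.4 ± 17.1 CPM in B6 (SD, n = 2 each), a log2 fold change of -2.85 (SE 0.44, edgeR adjusted p = 0.035), or 7.19-fold lower in 129. Without 129 replicate 1, 129 replicate 2, B6 replicate 1 or B6 replicate 2 the log2 fold change was -3.19, -2.56, -2.34 and -3.26, and the call ended each time (edgeR adjusted p = 0.16, 0.062, 0.18 and 0.092). It also ended in limma-voom (adjusted p = 0.059) and with a filter that kept genes of at least 10 CPM in 2 libraries (edgeR adjusted p = 0.053). Fewer cells that express a gene and less of its RNA per cell cannot be told apart in these libraries. The part of read assignment between Hspa1a and Hspa1b in this fold change was not tested, and their summed counts are given below.

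Hspa1b (ENSMUSG00000090877, chr17:34956436-34959238, minus strand) lies 9951 bases away. It had 23.0 and 14.7 CPM in the 129 libraries, against 35.2 and 18.3 CPM in the B6 libraries. The strains overlapped: 129 replicate 1 lay above B6 replicate 2. The log2 fold change was -0.51 (SE 0.42, edgeR adjusted p = 0.47), and without B6 replicate 1 it was 0.033.

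The share of the paired genes' counts given to Hspa1a separated the strains with little spread within them. In 129, Hspa1a took 142 of 618 counts in replicate 1, or 23.0% (exact 95% binomial interval 19.7% to 26.5%), and 93 of 402 in replicate 2, or 23.1% (19.1% to 27.6%). In B6 it took 1307 of 2183 counts in replicate 1, or 59.9% (57.8% to 61.9%), and 573 of 943 in replicate 2, or 60.8% (57.6% to 63.9%). The libraries of a strain thus agreed within their counting intervals although the total of the paired genes differed between them, and the strains did not overlap. The part of read assignment between these near-identical copies in that share was not tested. Such intervals hold the error of counting alone, because the reads carry no molecular identifiers and may repeat a molecule. With 2 libraries against 2, an exact two-sided permutation test cannot go below p = 0.333.

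**Figure D3:**
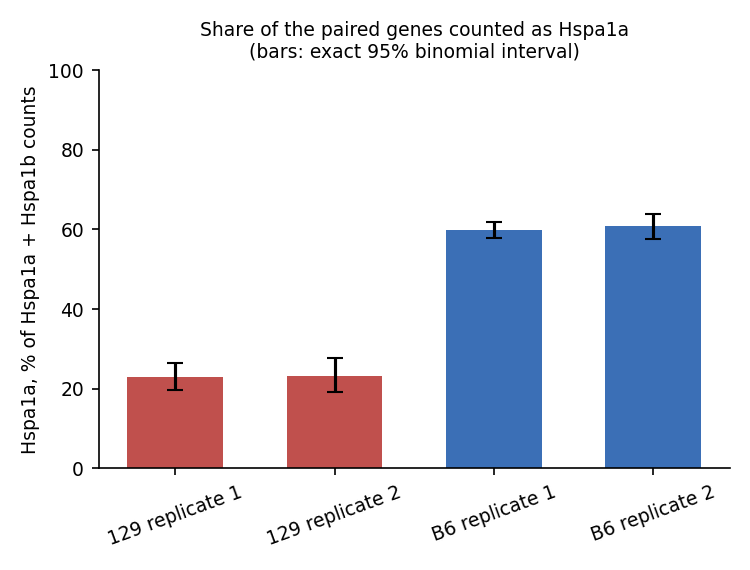
Hspa1a as a percentage of the counts of Hspa1a and Hspa1b together, 1 bar per library, 129 in red and B6 in blue, with exact 95% binomial intervals. The 129 bars stand at 23.0% and 23.1%, well under the B6 bars at 59.9% and 60.8%.

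Adding the counts of Hspa1a and Hspa1b takes away the split between them, though not the reads that may have been lost for matching both. The sum was 29.9 and 19.1 CPM in the 129 libraries, against 87.7 and 46.7 CPM in the B6 libraries. Both 129 libraries lay below both B6 libraries. The means were 24.5 ± 7.63 CPM in 129 and 67.2 ± 29.0 CPM in B6 (SD, n = 2 each), a log2 fold change of -1.46 (SE 0.38) that did not pass (edgeR adjusted p = 0.074). DESeq2 called it (adjusted p = 0.0063), and without B6 replicate 1 it was -0.94.

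Hspa1l, the testis-expressed Hsp70 next door, was lower in 129 as well. It lies at chr17:34972703-34979285 on the plus strand, starts 546 bases from the start of Hspa1a and reads away from it. Its libraries were at 0.676 and 0.664 CPM in 129, against 9.20 and 6.68 CPM in B6, so few reads stood behind its 129 level. The log2 fold change was -3.56 (SE 0.55, edgeR adjusted p = 0.035), which makes Hspa1l, beside Hspa1a, the only called gene among those tested within 100 kb of Hspa1a. The 16 others, Hspa1b aside, were chosen as a group after the values were seen and had log2 fold changes of -1.80 to 1.03 with a median of -0.098. Gm20481 overlaps Hspa1a on the opposite strand, and Gm10501 overlaps Hspa1l in the same way. Whether the counting used strand is not stated, so reads of such partners cannot be told apart. Transcripts of Hspa1l also share some 76-base windows with Hspa1a and Hspa1b. How far the call of Hspa1l rests on single libraries is not given here.

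Hspa8, the constitutive Hsp70 that serves unstressed cells, was far more abundant. It had 767 and 759.6 CPM in the 129 libraries, against 846 and 1265 CPM in the B6 libraries. B6 replicate 2 stood alone at the top, and the other 3 libraries lay close together. The log2 fold change of -0.47 (SE 0.22) did not pass (edgeR adjusted p = 0.22).

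Among the partners of Hsp70, the exchange factors Hsph1 and Bag3 had both 129 libraries above both of B6 without passing, and the J-protein gene Dnajb1 had nearly the same level in all 4 libraries. Hsph1, which pulls ADP off Hsp70 so that it lets go of its client, was at 388 and 289.8 CPM in the 129 libraries, against 169 and 166 CPM in the B6 libraries. The strains lay apart, and the B6 libraries were almost equal. The means were 339 ± 69.1 CPM in 129 and 167 ± 2.37 CPM in B6 (SD, n = 2 each), 2.02-fold apart, with a log2 fold change of 1.02 (SE 0.20) that missed the threshold (edgeR adjusted p = 0.051). It passed in DESeq2 (adjusted p = 0.0030), with upper-quartile factors (edgeR adjusted p = 0.040), with library totals (edgeR adjusted p = 0.036) and without 129 replicate 2 (edgeR adjusted p = 0.041).

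Bag3, which links Hsp70 to small heat shock proteins and to autophagy, had 64.5 and 55.3 CPM in the 129 libraries, against 37.0 and 35.9 CPM in the B6 libraries. Its strains lay apart too, with a log2 fold change of 0.72 (SE 0.23) that did not pass (edgeR adjusted p = 0.10). Dnajb1 had 88.8 and 95.59 CPM in the 129 libraries, against 96.4 and 95.60 CPM in the B6 libraries. The difference between the strains was as small as the spread within 129 (log2 fold change -0.058, SE 0.19, edgeR adjusted p = 0.86).

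Hspb1, the small heat shock protein of the set, was the least abundant member in B6. It had 7.49 and 10.5 CPM in the 129 libraries, from 155 and 222 counts, against 3.58 and 3.37 CPM in the B6 libraries, from 89 and 68 counts. Both 129 libraries were above both B6 libraries, and the means were 9.01 ± 2.15 CPM in 129 and 3.47 ± 0.148 CPM in B6 (SD, n = 2 each). The log2 fold change of 1.37 (SE 0.43) did not pass in edgeR (adjusted p = 0.10) and passed in DESeq2 (adjusted p = 0.032).

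Hsp90aa1, the inducible cytosolic Hsp90, was the most abundant member in CPM in both strains by the mean. It had 828 and 967 CPM in the 129 libraries, against 1212 and 947 CPM in the B6 libraries. The strains overlapped, and B6 replicate 1 stood highest (log2 fold change -0.27, SE 0.19, edgeR adjusted p = 0.41).

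Hspd1 and Hspe1 encode the ring and the lid of the mitochondrial chaperonin. Their genes on chromosome 1 (chr1:55077835-55088243, minus strand, and chr1:55088132-55091307, plus strand) overlap by 112 bases at their starts. Hspd1 had 339 and 359 CPM in the 129 libraries, against 369 and 284 CPM in the B6 libraries, and its strains overlapped (log2 fold change 0.096, SE 0.19, edgeR adjusted p = 0.78). Hspe1 had 116 and 142 CPM in the 129 libraries, against 164 and 154 CPM in the B6 libraries. Both 129 libraries of Hspe1 were lower than those of B6, without passing (log2 fold change -0.30, SE 0.19, edgeR adjusted p = 0.36). The direction of Hspd1 rested on B6 replicate 2, without which its log2 fold change was -0.12.

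Levels can be compared between genes only per length, here as CPM per kb of exons of protein-coding transcripts, and copies that share reads may lower them. In 129 the order of mean levels was Hspa8 (299 CPM per kb), Hsp90aa1 (238), Hspe1 (167), Hspd1 (132), Hsph1 (79.5), Dnajb1 (28.8), Bag3 (23.4), Hspb1 (8.74), Hspa1b (6.72) and Hspa1a (1.90). In B6 the first 4 stood in the same order, with Hspa8 at 413 CPM per kb, and Hspa1a (13.6 CPM per kb) and Hspa1b (9.54) stood above Hspb1 (3.37). Of the neighbours at the low end, Hspb1 and Hspa1b overlapped over the 129 libraries (7.26 to 10.2 against 5.23 to 8.20 CPM per kb), as did Hspa1a and Hspa1b over the B6 libraries (9.56 to 17.7 against 6.53 to 12.6 CPM per kb).

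The members summed to 2629 and 2698 CPM in the 129 libraries, against 2985 and 2997 CPM in the B6 libraries. The sum was thus steady within a strain and lower in 129, at means of 2663 ± 49.1 CPM in 129 and 2991 ± 8.32 CPM in B6 (SD, n = 2 each), where an exact permutation test cannot pass. Hspa8 and Hsp90aa1 made up 60.7% and 64.0% of it in the 129 libraries, against 69.0% and 73.8% in the B6 libraries. Their means were 763 and 898 CPM in 129, against 1056 and 1079 CPM in B6, and neither passed. The rest of the sum was higher in both 129 libraries than in both of B6. Its largest rise was in Hsph1, with means of 339 CPM in 129 and 167 CPM in B6. The lower sum in 129 thus came from Hspa8 and Hsp90aa1 and does not speak for each member. In B6 the steadiness of the sum came with opposite gaps of these genes, Hspa8 being higher in replicate 2 and Hsp90aa1 in replicate 1.

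The gap between the 2 libraries of a strain was widest in Hspa1b and Hspa1a, in both strains. In 129, replicate 1 was 1.57-fold above replicate 2 for Hspa1b (95% counting interval 1.36 to 1.82) and 1.56-fold for Hspa1a (1.19 to 2.04). In B6, replicate 1 was 1.92-fold above replicate 2 for Hspa1b (1.70 to 2.18) and 1.85-fold for Hspa1a (1.68 to 2.05). Such intervals compare the reads of 2 libraries and not conditions.

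The other gaps differed from strain to strain. In 129, Hsph1 (1.34-fold, interval 1.29 to 1.38) and Bag3 (1.17-fold, 1.08 to 1.26) were higher in replicate 1. Hspb1 (ratio of replicate 1 to replicate 2 of 0.711, 0.576 to 0.877), Hspe1 (0.815) and Hsp90aa1 (0.856) were lower there, Hspd1 (0.946) and Dnajb1 (0.929) slightly so, and Hspa8 was level (1.01, 0.988 to 1.03). In B6, Hspa8 was the only member lower in replicate 1 (0.669, 0.657 to 0.681), while Hspd1 (1.298) and Hsp90aa1 (1.28) were higher and Hspe1 slightly so (1.06, 1.02 to 1.12). Hsph1, Dnajb1, Hspb1 and Bag3 had B6 intervals that held 1.

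By this measure 5 of 10 members were higher in replicate 1 of 129, and 9 of 10 in replicate 1 of B6, where 49.5% of all genes tested in 129 and 49.6% in B6 were. The intervals left out 1 for 9 of 10 members in 129, where they did so for 61.8% of all genes tested, and for 6 of 10 in B6, where they did so for 65.4%. Among genes that averaged 10 CPM or more, these shares were 73.6% in 129 and 76.8% in B6. A gap of 2-fold or more was found for 0 of 10 members in 129, where 14.1% of all genes tested had one, and for 0 of 10 in B6, where 16.4% had one. Among the 10262 genes at that level a gap of 2-fold or more was found for 7.34% in 129 and 7.05% in B6. The median size of the gap, as an absolute log2 ratio, was 0.26 over the members and 0.25 over those 10262 genes in 129, and 0.22 and 0.28 in B6. By the median, the members' gaps were thus of about the size found over genes averaging 10 CPM or more. Those genes were not matched to the members in level, and Hspb1 averaged less than 10 CPM.

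**Figure D4:**
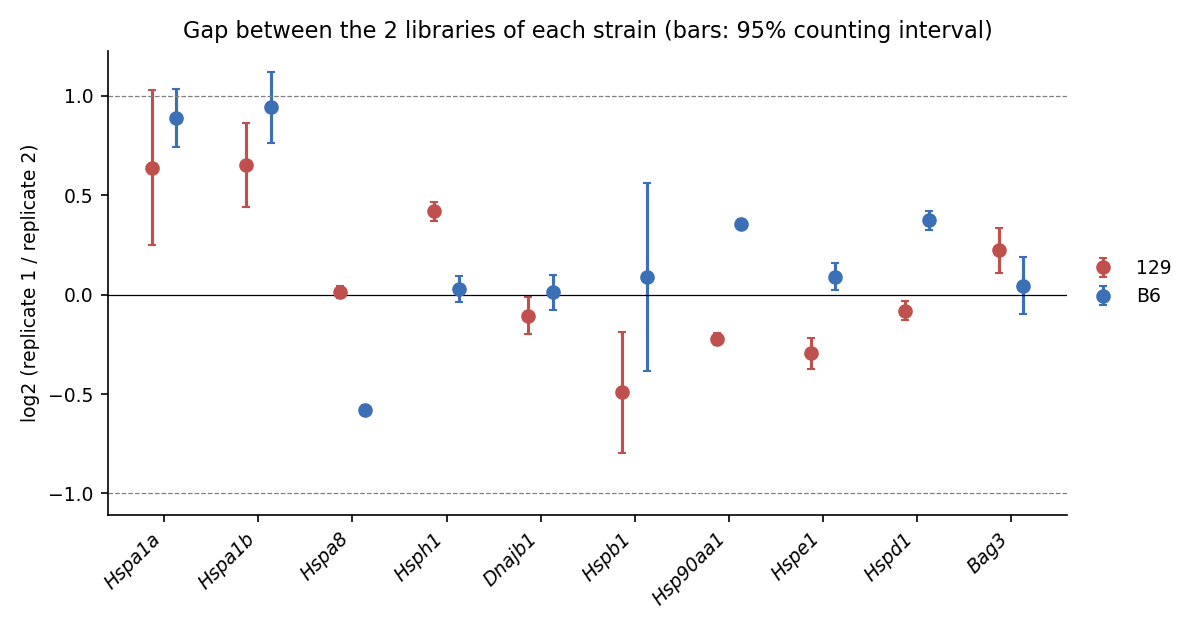
Log2 ratio of replicate 1 to replicate 2 for each chaperone gene in 129 (red) and B6 (blue), with 95% counting intervals, a line at 0 and dashed lines at 2-fold. Hspa1a and Hspa1b lie highest in both strains, Hspa8 lies low in B6 only, and no point reaches the dashed lines.

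The immediate early genes, transcription factors and feedback genes that cells switch on within minutes of a stimulus, had wider gaps in 129. All 20 of them were higher in replicate 1 of 129, where 49.5% of all genes tested were, and 14 of 20 by 2-fold or more, with a median log2 ratio of 1.52. The members' median was -0.033 there. Some markers of other cells were also high in that library. For fibroblasts 7 of 8 markers were higher in replicate 1 of 129 (median log2 ratio 1.19). So were 4 of 4 macrophage markers tested, each by 2-fold or more (median 1.43). The gaps were smaller for Sertoli cells (6 of 8, median 0.43), peritubular muscle (4 of 5, 0.67) and endothelium (3 of 5, 0.099). The part of such cells in the gap of the immediate early genes was not tested. In B6, 11 of the 20 were higher in replicate 1, 2 had a gap of 2-fold or more, and the median was 0.061. Their summed level was 4548 and 1723 CPM in the 129 libraries, against 3171 and 3405 CPM in the B6 libraries. Fos was at 492 and 144 CPM in the 129 libraries, against 349 and 296 CPM in the B6 libraries, and Egr1 at 805 and 452 CPM in 129, against 1102 and 1071 CPM in B6. Between the strains 0 of 20 passed, and their median log2 fold change was 0.10.

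The wider chaperone network, 10 lists of 95 genes besides the members, of which 93 were tested, gave 1 gene higher and 1 lower in 129, where 2.86% of all genes passed. The lower gene was Hspa1l. The higher gene was Hspb6, a small heat shock protein of muscle, at 16.6 and 10.3 CPM in the 129 libraries, against 1.57 and 2.43 CPM in the B6 libraries (log2 fold change 2.77, SE 0.50, edgeR adjusted p = 0.047). The median over the 93 genes was -0.081, that of the 11 other Hsp70 and Hsp110 genes was -0.27, and that of the 7 other small heat shock genes tested was 0.18.

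Hsf1, the factor that drives the heat shock response, had both 129 libraries high without passing. It stood at 123 and 136 CPM in the 129 libraries, against 69.9 and 72.6 CPM in the B6 libraries (log2 fold change 0.86, SE 0.19, edgeR adjusted p = 0.056). Hsf2, which is expressed in germ cells, had 69.9 and 72.7 CPM in the 129 libraries, against 123 and 84.5 CPM in the B6 libraries (log2 fold change -0.54, SE 0.24, edgeR adjusted p = 0.19). These factors thus pointed opposite ways, and 0 of 5 genes of their list passed (median -0.52), with Hsbp1, an inhibitor of HSF1, at a log2 fold change of 0.20 (SE 0.18).

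All 8 subunits of the cytosolic chaperonin TRiC had fold changes below 0, and 0 of 8 passed. Its list median was -0.41, with Cct8 at -0.48 (SE 0.26) and Cct2 at -0.44 (SE 0.17), where 49.1% of all genes tested had a fold change below 0. Both 129 libraries lay below both B6 libraries for 6 of the 8, against 29.2% of all genes tested. Of 3 other Hsp90 genes 0 passed (median 0.18): Hsp90ab1, the constitutive cytosolic form, had 3151 ± 70.8 CPM in 129 and 3046 ± 148 CPM in B6 (SD, n = 2 each), and Hsp90b1 of the endoplasmic reticulum had a log2 fold change of 0.18 (SE 0.19). Of 23 other J-proteins 0 passed (median -0.12), with Dnaja2 at -0.32 (SE 0.16) and Dnajc13 at -0.37 (SE 0.18). Of 19 co-chaperones 0 passed (median 0.014), with Fkbp4 at -0.0072 (SE 0.19) and Stip1 at 0.017 (SE 0.20).

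The remaining lists also held few or no calls. Of 5 other Bag genes 0 passed (median -0.11), with Bag6 at 0.17 (SE 0.21) and Bag1 at -0.20 (SE 0.20). Of 4 ubiquitin genes 0 passed (median -0.48), with Ubb at -0.50 (SE 0.19) and Rps27a at -0.45 (SE 0.18). Of 8 genes of mitochondrial protein quality control 0 passed (median -0.064), with Lonp1 at 0.24 (SE 0.17) and Afg3l2 at 0.12 (SE 0.20).

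**Figure D5:**
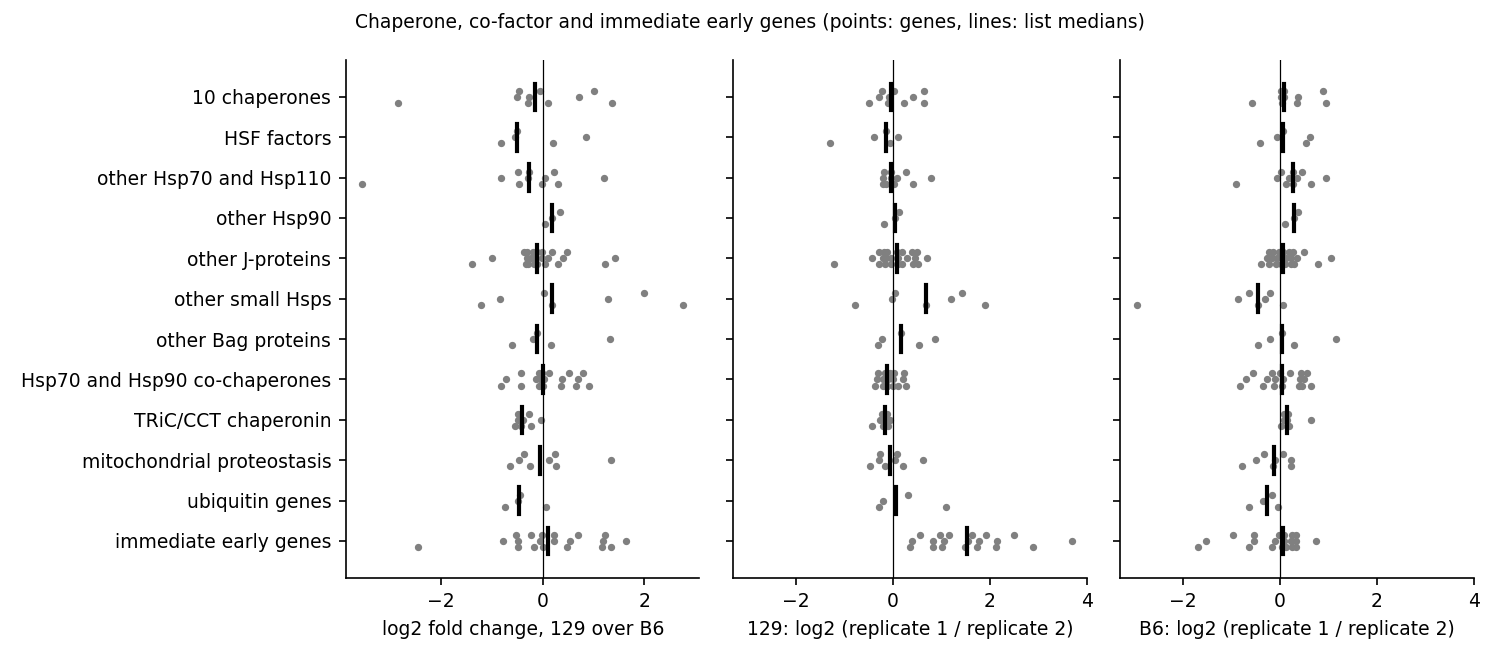
Points are genes of each list and lines are list medians, for the log2 fold change of 129 over B6 (left), the log2 ratio of replicate 1 to replicate 2 in 129 (middle) and the same in B6 (right). The immediate early genes lie right of 0 in the middle panel with a median of 1.52, where the 10 chaperones have a median of -0.033.

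Genes whose profile over the 4 libraries lay near that of the summed Hspa1a and Hspa1b, by the Euclidean distance of centred log2 CPM among genes averaging 10 CPM or more, included Egln3 (distance 0.31), Apba1 (0.32), Mgst2 (0.34) and Synm (0.37). Egln3, for example, had 10.7 and 9.20 CPM in the 129 libraries, against 35.0 and 18.8 CPM in the B6 libraries. These 4 genes were picked for being near the sum, so their like order, highest in B6 replicate 1 and lowest in 129 replicate 2, is no separate finding. Of them 0 of 4 passed the test between strains.

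Markers of germ cells and of other cells were measured beside these results. The 12 markers of spermatogonia, among them Ddx4 and Dazl, were all detected and summed to 3130 and 3959 CPM in the 129 libraries, against 3870 and 4125 CPM in the B6 libraries. The 8 fibroblast markers summed to 2279 and 862 CPM in the 129 libraries, against 3755 and 2327 CPM in the B6 libraries. The collagens Col1a1, Col1a2 and Col3a1 and Postn had both 129 libraries below both of B6. Dcn (538 and 232 CPM in 129, against 119 and 149 CPM in B6) and Pdgfra (196 and 103 CPM in 129, against 42.7 and 38.8 CPM in B6) had both above. The 8 Sertoli cell markers summed to 797 and 445 CPM in replicates 1 and 2 of 129, against 318 and 457 CPM in those of B6. Ctsl was the largest part of that sum, at 513 and 296 CPM in 129, against 298 and 433 CPM in B6. Its libraries overlapped, while 7 of the 8 markers had both 129 libraries above both of B6 (list median log2 fold change 1.79). The 5 endothelial markers summed to 196 and 75.2 CPM in 129, against 14.3 and 20.1 CPM in B6. The 5 markers of peritubular muscle summed to 92.2 and 39.9 CPM in 129, against 80.5 and 23.4 CPM in B6. The 6 macrophage markers summed to 49.7 and 18.3 CPM in 129, against 28.7 and 26.4 CPM in B6. Within 129, replicate 1 was thus the high library for fibroblast, Sertoli, endothelial, peritubular and macrophage sums. The same held there for the immediate early genes and for Hspa1a and Hspa1b. Of the endothelial markers, though, only 3 of 5 were higher in replicate 1 of 129 (median log2 ratio 0.099). In B6, replicate 1 was the high library for Hspa1a and Hspa1b and for the fibroblast, peritubular and macrophage sums. It was the low one for the Sertoli, endothelial and immediate early sums. The 6 Leydig cell markers summed to 4.203 and 4.36 CPM in 129, against 9.04 and 6.24 CPM in B6. Single markers passed in both directions. Of the spermatogonial ones, Etv5 (log2 fold change 1.64) and Cd9 (1.10) were higher in 129 and Uchl1 (-1.20) was lower. Pdgfra (1.88) of fibroblasts, Rhox5 (6.40) and Clu (4.37) of Sertoli cells, Des (3.16) of peritubular muscle and Cdh5 (5.15) and Eng (3.72) of endothelium were higher in 129 (edgeR adjusted p = 0.030 to 0.044 over these markers). Some other markers of these lists did not follow. Tagln (-2.58) and Myh11 (-0.64) of peritubular muscle had negative log2 fold changes without passing. Pecam1 (0.31) and Tek (0.0035) of endothelium had overlapping libraries. Of the fibroblast markers, 6 of 8 had both 129 libraries below both of B6. None of the Leydig and macrophage markers tested passed. No marker was at 0 in all 4 libraries. The part of such cells in the chaperone levels was not tested.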

How the data were processed

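Gene expression was measured by RNA sequencing of 4 libraries. The values deposited by the authors are raw, unnormalized read counts for each gene, with a column for each library. Per the submitters' processing notes, the tools were HISAT2 2.2.1, cutadapt 3.4, bcl2fastq 2.20, DESeq2 1.30.1 and HTSeq 0.13.5, and the build was mm10. Their settings, the gene annotation and whether strand was used are not stated. Per the labels, the library kit kept strand (stranded mRNA) and single-end reads were 76 bp long.

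Libraries were assigned to strain and replicate from their titles. Libraries sharing a strain were distinct, with a chi-square per gene of 75.0 in 129 and 58.6 in B6. Counts were fitted in edgeR 4.0.16 (R 4.3.3) on the 16005 genes left by filterByExpr. TMM factors ran from 0.982 to 1.04, the quasi-likelihood fit was robust and not of the legacy form, and strain was the only term. An SE is the size of a log2 fold change over the root of its F. Alternatives used DESeq2 1.42.0, limma 3.58.1, other scalings and filters, a replicate block, each library left out and the summed copies. The fits were checked on simulated counts.

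The members and lists were chosen with earlier results of these data known. Besides the members, the text names Hsf1 and Hsf2, the called genes of each list (at most 3 per direction) or its 2 most abundant where none was called, and the 5 nearest profiles, of which 1 is not reported here. For marker lists without a call the sums are given in place of genes, and Hspa1l's neighbours were picked after values were seen. Gene positions and transcripts came from GENCODE M21, and promoters from RefSeq.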

Additional observations from a re-analysis of the deposited data

How the results depend on the processing

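Hspa1a was lower in 129 under every alternative run, at log2 fold changes of -3.26 to -2.34, and its call ended where the report says. The number of members called (1) was 2 with upper-quartile factors and with library totals, 3 in DESeq2 and 0 in limma-voom, with the stricter filter and with the copies summed; leaving out a library gave 0 to 1 (Hsph1, without 129 replicate 2). The number of genes called in all (457) was 1021 with upper-quartile factors, 1052 with library totals, 260 without the filter, 150 with the stricter filter, 2455 in DESeq2 and 246 in limma-voom, and 0 to 827 with a library left out. The summed copies (-1.46) were called in DESeq2 (-1.47), and stood between -1.89 and -0.94 with a library left out. With the replicate number as a block, 844 genes and 2 members were called, Hsph1 being added (edgeR adjusted p = 0.0497), and the sum passed (-1.42, edgeR adjusted p = 0.038). The numbers do not pair the samples: the labels tie no animal or day to them, and the gaps of the strains correlated at -0.019 across genes. With a library left out, Hspa1b ranged from -0.95 to 0.033 (positive without B6 replicate 1) and Hspd1 from -0.12 (without B6 replicate 2) to 0.29. Of the values of single members under alternatives, 123 kept direction and call, 6 lost a call, 6 gained one and 2 changed sign. The median gap over the members ran from -0.089 to 0.014 in 129 and from 0.082 to 0.12 in B6. With 1 library left in a strain, it is assumed to vary like the other strain. The fewest reads stood behind Hspa1a in 129 (142 and 93 counts) and Hspb1 in B6 (89 and 68 counts).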
